A study of Mus musculus with 16 samples.

Results

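The genes described here encode the subunits of integrins, the adhesion receptors that join cells to matrix and to each other, and the chains of laminins, the main adhesive proteins of basement membranes. They were taken by gene symbol, as numbered or lettered integrin alpha or beta subunits and laminin alpha, beta or gamma chains. The 36 genes described, of 45777 listed, are 26 integrin subunits and 10 laminin chains. All 36 had enough reads to be among the 19915 genes tested. Transcripts were measured by sequencing of polyA RNA from ear skin of C57BL/6 mice in 2 groups of 3 libraries. In both groups both ears received 20 µL of 50 µM MC903 in ethanol each day for 10 days. MC903 (calcipotriol) is an analogue of vitamin D, and repeated doses on the skin give a dermatitis-like inflammation. One group also received an antibody to oncostatin M (anti-OSM, 20 µg per mouse, into the skin every other day), a cytokine of the interleukin 6 family. The other received an antibody to the neutrophil surface protein Ly6G (anti-Ly6G, 200 µg per mouse, into the peritoneum, 2 days ahead of MC903 and again on days 1 and 4 after it). The groups thus differ in antibody, in route and in schedule at once, and no isotype control is named for these groups. Ears given MC903 alone and untreated controls, 10 libraries in all, were not analysed here, so which group moved cannot be told. The mice are labelled wild type, without sex or age. Nothing states that each library is a different animal, so the p-values cover the spread among these libraries, which may be technical.

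Total counts were 52163179 to 64122588 reads per library, and 3 counts, taken as the floor of detection, were 0.0468 to 0.0575 CPM, a count scaled to library size. The basal keratin genes Krt14 and Krt5, which define keratinocytes, were at 6506 and 3677 TPM (transcript abundance corrected for length) on average with anti-OSM, against 9671 and 4376 with anti-Ly6G. The libraries separated by group on the first principal component, on which anti-OSM scored -34.7 to -26.6 and anti-Ly6G 38.6, 39.3 and, for replicate 3, 14.9. Ly6g, the gene of the antibody's target, had 3, 0 and 0 counts with anti-OSM and 3 in each anti-Ly6G library, at or under the floor, so it checks neither group.

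An integrin is a pair of 1 alpha and 1 beta subunit, and the alpha subunit largely sets what it binds. In skin, basal keratinocytes are anchored by the pair of alpha 6 and beta 4 in hemidesmosomes and by the pair of alpha 3 and beta 1, both of which bind laminin 332. That laminin, a trimer that holds the alpha 3 and beta 3 chains, lies under the epidermis, and its loss causes blistering. White blood cells use the beta 2 integrins, the alpha 4 integrins and the pair of alpha E and beta 7 to leave vessels and to stay in epithelium. For the comparison the 36 genes were sorted by their known main site of expression into 4 classes. These were 9 epithelial, 12 stromal (including vessel, muscle and cartilage), 9 leukocyte (including Itga2b of platelets) and 6 broadly expressed genes. The sorting was made with earlier results of these data known.

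With anti-OSM, most epithelial subunits were lower and some leukocyte subunits were higher than with anti-Ly6G, while stromal subunits mostly did not pass the test. In edgeR's quasi-likelihood test over all genes (Benjamini-Hochberg adjusted p under 0.05), 3 of the 36 were higher with anti-OSM, 8 were lower and 25 did not pass. Over all 19915 tested genes the same test called 5.81% higher and 6.27% lower, or 12.1% in either direction, against 30.6% of these 36. Of the 9 epithelial genes 6 were lower and 3 did not pass, with a median log2 fold change of -0.45, and their summed level was 248.3 to 288.1 TPM with anti-OSM, against 360.2 to 427.7 with anti-Ly6G. Of the 9 leukocyte genes 3 were higher and 6 did not pass, with a median of 0.36. Of the 12 stromal genes 1 was lower (median -0.08), and of the 6 broadly expressed genes 1 was lower (median 0.07). Over all tested genes the median log2 fold change was 0.01. At least 2-fold falls were found for 2 of the 36, Itgb6 and Itga3, and for 1.18% of all tested genes, and such rises for 0 of the 36 and 0.788% of all. Fold changes come from the counts, on a log2 scale on which a negative value means lower with anti-OSM, while levels are in TPM.

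**Figure D1:**
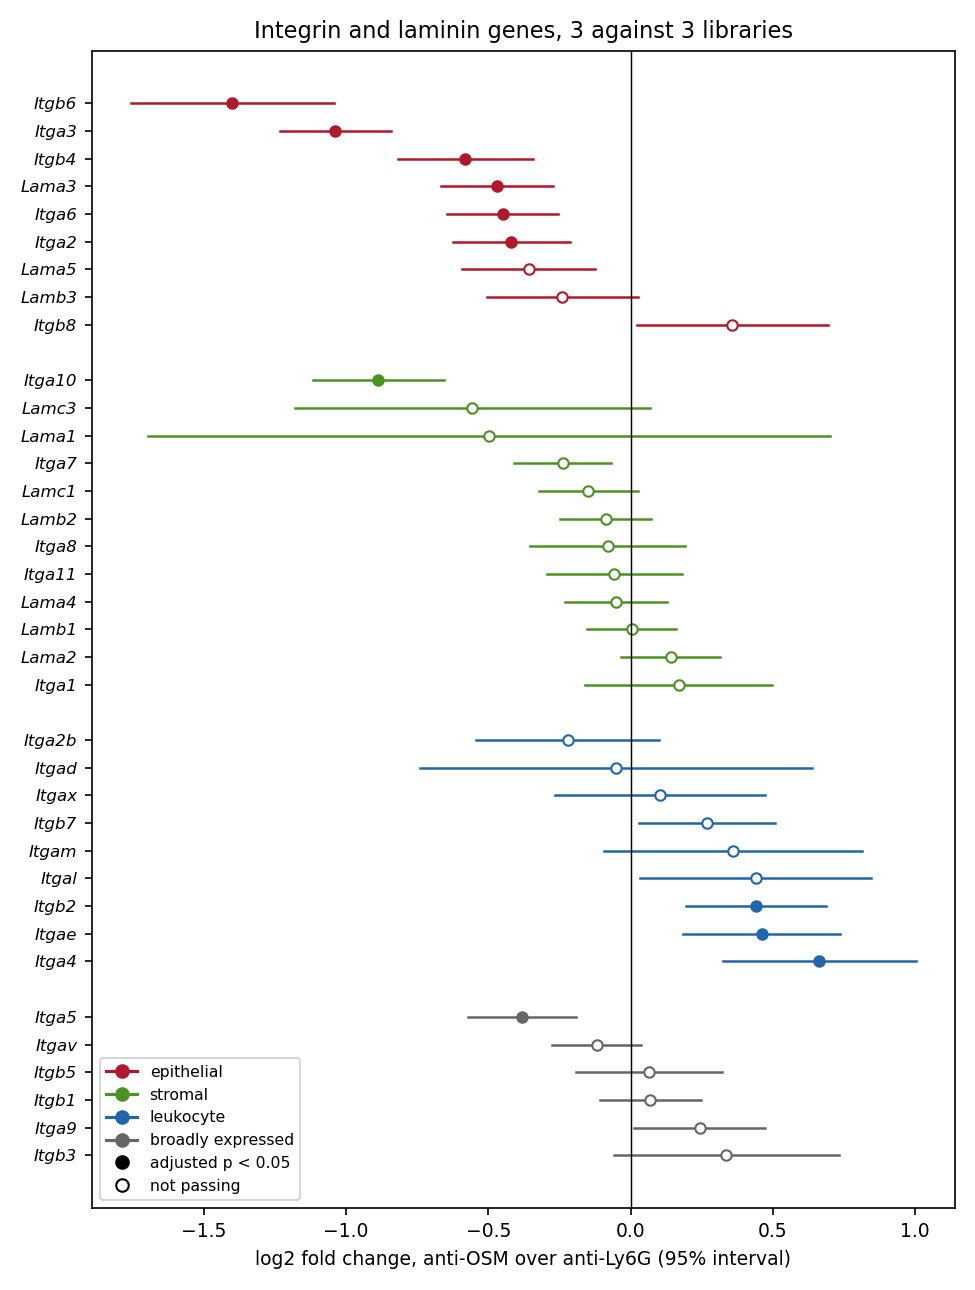
Log2 fold change of each of the 36 genes, anti-OSM over anti-Ly6G, with its 95% interval from edgeR (3 libraries a group), ordered within the 4 sites of expression. Filled points passed the test at an adjusted p under 0.05; the epithelial genes lie mostly left of 0, with Itgb6 at -1.40, and the leukocyte genes mostly right of it, with Itga4 at 0.66.

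The call counts changed when single libraries were left out, as did the counts over all tested genes, which are given further below. Without each library in turn, 2 (anti-OSM replicate 3) to 7 (anti-Ly6G replicate 3) epithelial genes were lower, with 3 without anti-OSM replicate 1. The leukocyte count was 5 without anti-Ly6G replicate 3, 1 without anti-OSM replicate 1 or 2, and 0 without each of anti-OSM replicate 3 and anti-Ly6G replicates 1 and 2. The calls of 3 genes, Itgb6, Itga3 and Itga10, were kept without any 1 of the 6 libraries. All genes called with the 6 libraries kept the sign of their log2 fold change in each of these fits. In these bulk samples, fewer cells of a type and less RNA per cell cannot be told apart.

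**Figure D2:**
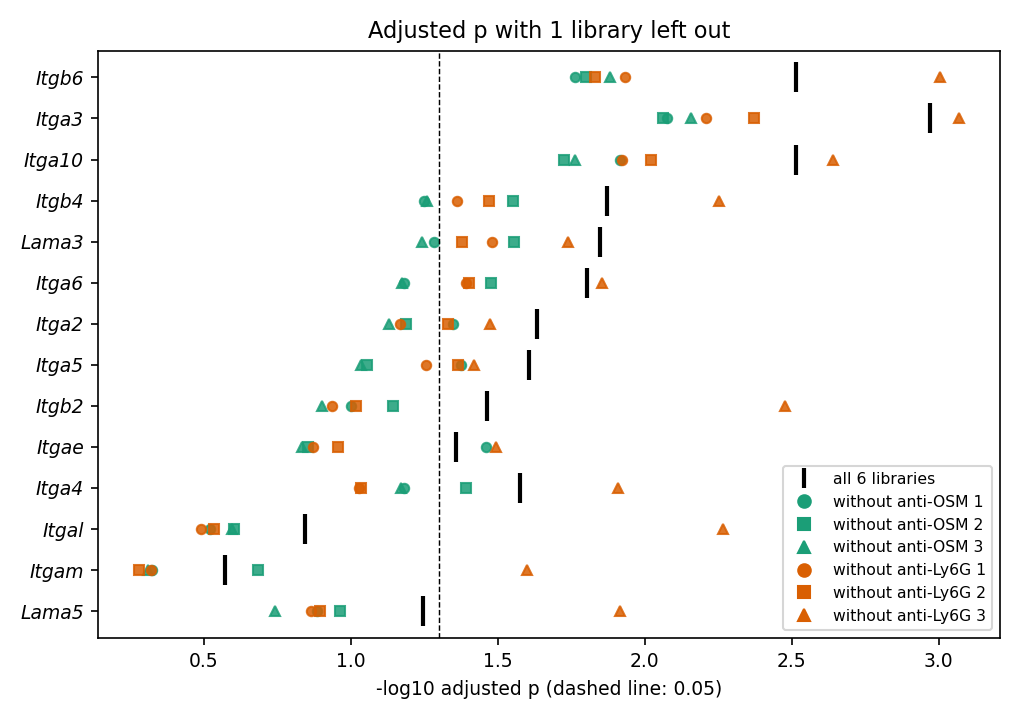
Adjusted p from edgeR, as -log10, for the 11 genes that passed and for Itgal, Itgam and Lama5, with all 6 libraries (bar) and with each library left out (symbols; colour gives the group, shape the replicate). Itgb6, Itga3 and Itga10 stay right of the dashed 0.05 line in all fits, and Itgal (0.00543), Itgam (0.0251) and Lama5 (0.0121) cross it without anti-Ly6G replicate 3.

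Promoter letters are shown for 4 genes that stand for the pattern and that RefSeq's promoter table (GRCm38.p6) holds: Itga3 and Itgb6 for the epithelial falls, Itga10 for the stromal fall and Itga4 for the leukocyte rise. The table held 23 of the 36 genes. Each line gives the 250 bases before the outermost listed start, 5′ to 3′ on the gene's strand, with motif matches in capitals. For Itga3 that start lies within the gene's span (95044475 to 95076844), so part of its window is inside the span. The other windows adjoin the spans of their genes.
Itga3, chr11:95076715-95076964, minus strand: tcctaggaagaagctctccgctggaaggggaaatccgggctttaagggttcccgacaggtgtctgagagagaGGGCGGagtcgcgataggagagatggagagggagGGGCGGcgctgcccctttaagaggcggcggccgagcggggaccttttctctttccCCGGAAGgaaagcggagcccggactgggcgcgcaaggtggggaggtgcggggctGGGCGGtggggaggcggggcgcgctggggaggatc
Itgb6, chr2:60722604-60722853, minus strand: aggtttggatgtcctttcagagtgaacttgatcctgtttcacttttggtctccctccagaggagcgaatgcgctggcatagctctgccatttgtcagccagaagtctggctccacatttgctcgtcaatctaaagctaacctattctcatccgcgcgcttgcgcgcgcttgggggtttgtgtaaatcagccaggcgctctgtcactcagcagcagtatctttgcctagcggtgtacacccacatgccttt
Itga10, chr3:96645334-96645583, plus strand: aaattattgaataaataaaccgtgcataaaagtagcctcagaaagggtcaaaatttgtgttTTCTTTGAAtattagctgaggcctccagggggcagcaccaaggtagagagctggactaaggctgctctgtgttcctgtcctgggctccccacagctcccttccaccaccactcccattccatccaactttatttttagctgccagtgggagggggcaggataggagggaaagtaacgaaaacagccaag
Itga4, chr2:79255176-79255425, plus strand: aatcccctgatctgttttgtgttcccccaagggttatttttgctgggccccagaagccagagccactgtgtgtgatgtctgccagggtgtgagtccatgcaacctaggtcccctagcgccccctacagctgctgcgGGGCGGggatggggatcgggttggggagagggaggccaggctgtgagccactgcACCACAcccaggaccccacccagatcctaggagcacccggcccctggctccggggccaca
The motifs searched on both strands were TGANTCA (AP-1), TTCNNNGAA (STAT), GGGCGG (GC box), TGTGGT (RUNX) and CCGGAAG (ETS). The Itga3 window held 3 GC boxes and 1 ETS match, Itga10 held 1 STAT match that starts 189 bases before the start site, Itga4 held 1 GC box and 1 RUNX match, and Itgb6 held 0 matches. No 2 matches overlapped in these windows. Of all 32851 listed windows of that length, 32.7% held the GC box, 14% the RUNX, 7.02% the STAT, 6.91% the ETS and 6.75% the AP-1 letters. Among the 26 windows of these genes the shares were 34.6% for the GC box, 7.69% for RUNX, 7.69% for STAT, 3.85% for ETS and 3.85% for AP-1. A match describes letters only.

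Of the epithelial integrins, Itgb6 was lowest relative to anti-Ly6G. Itgb6 (gene ID 16420, chromosome 2, 60598292 to 60722603, GRCm38) encodes the partner of alpha V that activates latent TGF-beta in injured epithelium. It was at 4.93, 5.14 and 3.78 TPM with anti-OSM, compared with 13.96, 12.8 and 10.2 with anti-Ly6G. Every anti-OSM library was far below every anti-Ly6G library. The log2 fold change was -1.40 (SE 0.16, 95% interval -1.76 to -1.04, adjusted p = 0.00307), a 2.64-fold lower level. Itgb8, the other beta subunit known for activating TGF-beta, had values of 5.11, 4.19 and 3.71 against 2.87, 3.77 and 3.69 TPM. In TPM its lowest anti-OSM library was just under its highest anti-Ly6G library. In CPM its lowest anti-OSM library (5.66) was just above its highest anti-Ly6G library (5.44). Its log2 fold change of 0.36 (0.02 to 0.69, adjusted p = 0.148) did not pass.

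Itga3 (gene ID 16400, chromosome 11, 95044475 to 95076844) encodes the alpha subunit that binds laminin 332 outside hemidesmosomes. It was at 22.8, 22.6 and 19.3 TPM with anti-OSM, against 42.8, 49.9 and 42.2 with anti-Ly6G. The groups lay far apart, and the log2 fold change was -1.04 (SE 0.09, -1.23 to -0.84, adjusted p = 0.00107). Its usual partner Itgb1, the most abundant of the 36 genes at 185 TPM on average, was at 200, 183 and 181 against 166, 180 and 200 TPM. These ranges overlapped, and the log2 fold change of 0.07 (-0.11 to 0.25) did not pass.

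Both subunits of the hemidesmosome pair were lower with anti-OSM. Itga6 (gene ID 16403, chromosome 2, 71786886 to 71858427), the second most abundant of these genes, was at 96.9, 111 and 98.9 TPM with anti-OSM, against 133, 157 and 137 with anti-Ly6G. Itgb4 (gene ID 192897, chromosome 11, 115974725 to 116008412) was at 55.8, 61.7 and 50.6 against 81.3, 97.7 and 76.9 TPM. Neither gene overlapped between groups. The log2 fold changes were -0.45 for Itga6 (SE 0.09, adjusted p = 0.0157) and -0.58 for Itgb4 (SE 0.10, adjusted p = 0.0134). Leaving out anti-OSM replicate 1 or 3 ended both calls, at adjusted p 0.0661 to 0.0672 for Itga6 and 0.0550 to 0.0565 for Itgb4. The ratio of Itga6 to Itgb4 TPM was 1.83 ± 0.115 with anti-OSM, against 1.67 ± 0.0919 with anti-Ly6G (SD, n = 3), and the groups overlapped.

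Itga2 (gene ID 16398, chromosome 13, 114833081 to 114932100), the alpha subunit of a collagen receptor of keratinocytes and platelets, was at 7.77, 7.19 and 6.12 TPM against 9.37, 9.48 and 9.80. All anti-OSM libraries were below all anti-Ly6G libraries (log2 fold change -0.42, SE 0.09, adjusted p = 0.0232). Leaving out either of anti-OSM replicates 2 and 3, or anti-Ly6G replicate 1, ended that call (adjusted p 0.0648 to 0.0742).

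Of the laminin 332 chains described here, Lamb3, the beta 3 chain, did not pass. It was at 27.9, 34.0 and 30.1 TPM against 30.6, 43.0 and 37.2, with overlap between groups, and its log2 fold change was -0.24 (-0.50 to 0.03, adjusted p = 0.213). The ratio of Lama3 to Lamb3 TPM was 0.534, 0.587 and 0.539 with anti-OSM, compared with 0.629, 0.494 and 0.578 in the other group. The means, 0.553 ± 0.0289 and 0.567 ± 0.0681 (SD, n = 3), differed by less than the spread between libraries in this unit, a log2 difference of -0.03, whereas the ratio of raw counts gave -0.24. The ratios of partner subunits are given as values, with no test.

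Lama3, the alpha 3 chain, was lower by counts, and the size of its fall depended on the unit. Lama3 (gene ID 16774, chromosome 18, 12333417 to 12583013) fell by 0.47 on the log2 scale from the counts (SE 0.09, -0.66 to -0.27, adjusted p = 0.0142). It no longer passed without either of anti-OSM replicates 1 and 3 (adjusted p 0.0520 to 0.0574). In TPM it was at 14.9, 19.9 and 16.2 against 19.3, 21.2 and 21.5, and anti-OSM replicate 2 lay inside the range of the anti-Ly6G libraries. With limma on log2(TPM + 0.5), an alternative chosen after the data were seen, the log2 difference was -0.28 (adjusted p = 0.185). The gene is known to make a short and a long transcript from separate promoters, and TPM divides reads by transcript length. Reads per TPM unit, on a log2 scale centred on the median gene of each library, were 1.60, 1.44 and 1.59 with anti-OSM, against 1.71, 1.82 and 1.71 with anti-Ly6G. They were lower in each anti-OSM library, by 0.21 on average (2-sided exact permutation p = 0.1, the smallest possible here). Lama2 (difference -0.0036) and Itga7 (0.07) had the same p in this test, so the p does not mark Lama3 out. Of the 36 genes only Lama3 differed by more than 0.1 in this measure, a limit set after the values were seen, as did 3.50% of 15919 genes with over 1 TPM. The levels of the separate transcripts were not analysed here.

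**Figure D3:**
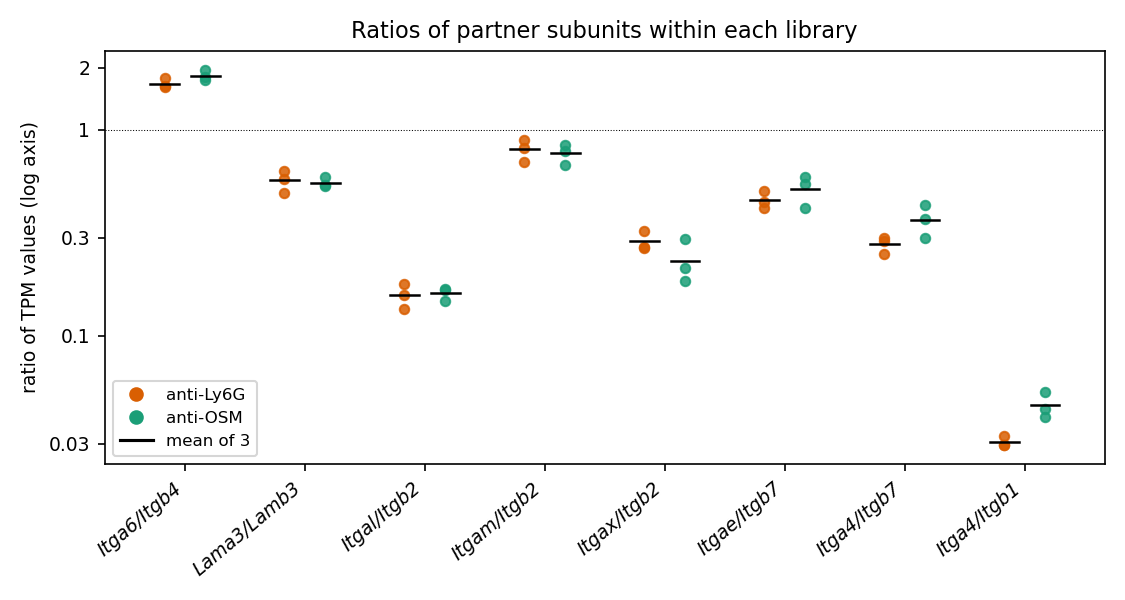
Ratio of the TPM values of 8 pairs of partner subunits in each library (points, log axis) with the mean of 3 (bars). Itga4/Itgb1 does not overlap between groups, with means of 0.0461 with anti-OSM and 0.0306 in the other group, and the other 7 pairs overlap.

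**Figure D4:**
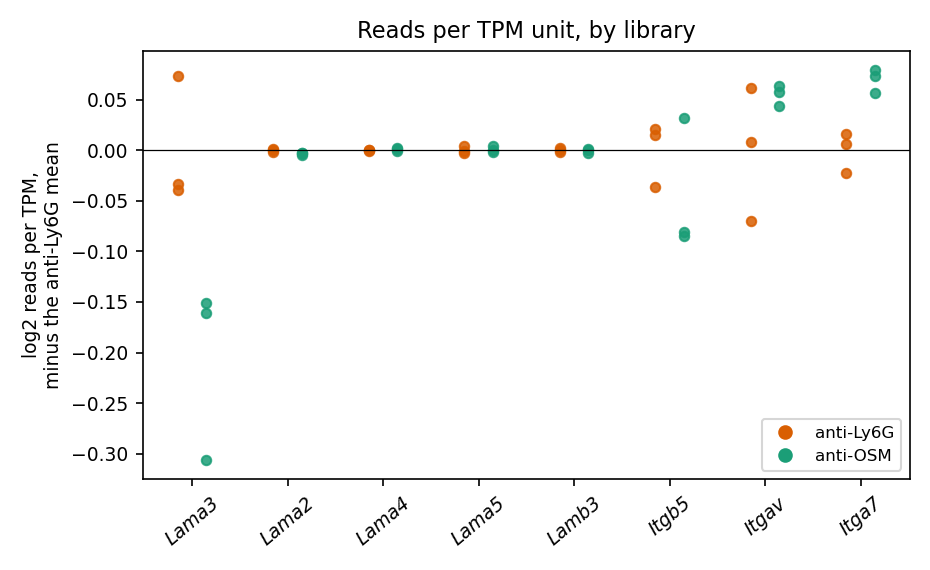
Log2 reads per TPM unit in each library for 8 of the genes, set to the mean of the 3 anti-Ly6G libraries. The 3 anti-OSM libraries of Lama3 lie below its anti-Ly6G libraries, with a mean difference of -0.21, while Lama2, Lama4, Lama5 and Lamb3 stay close to 0. The mean differences of Itgb5 (-0.045), Itgav (0.055) and Itga7 (0.07) are smaller than that of Lama3, and the groups of Itga7 do not overlap.

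The remaining epithelial chain, Lama5 of laminin 511, was at 22.5, 22.7 and 19.6 TPM against 27.4, 32.5 and 24.5. The groups did not overlap, yet the log2 fold change of -0.36 (-0.59 to -0.12, adjusted p = 0.0568) did not pass. It passed without anti-Ly6G replicate 3 (adjusted p = 0.0121) and in DESeq2. Over the 36 genes, 10 had all anti-OSM libraries below all anti-Ly6G libraries in CPM and 5 had them above. Over all tested genes these shares were 17.3% and 17.7%, or 35% in either direction.

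Some keratinocyte and skin appendage markers were lower beside the epithelial subunits. Of 7 basal keratinocyte markers 2 were lower and 5 did not pass, and their summed level was 10091 to 12505 CPM with anti-OSM, against 14387 to 15107 with anti-Ly6G. Krt14 had a log2 fold change of -0.55 (adjusted p = 0.0271), whereas Krt5 (-0.22, adjusted p = 0.231) did not pass. Of 10 markers of activated keratinocytes 5 were lower, with sums of 2441 to 4706 CPM against 6639 to 10027, and the wound keratin Krt6a fell by 1.78 on the log2 scale. That list shares genes with the neutrophil list below, so the lists are not separate. Of 11 tested hair follicle markers 3 were lower in edgeR, 7 at an unadjusted p under 0.05 and 9 in DESeq2, with sums of 121.8 to 151.5 CPM against 405.9 to 776.3. The hair follicle list shares a gene with the cartilage list below. Of 8 sebaceous gland markers 1 was lower in edgeR and 5 in DESeq2, with sums of 2811 to 4926 CPM against 5437 to 6235. For DESeq2 and for unadjusted p, here and below, the share over all genes is not given. Those counts therefore cannot be set against it. None of the marker counts is read as a result about its list. None of these markers was at 0 in all libraries. Their part in the falls of the subunits was not tested.

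The other hemidesmosome and anchoring genes gave a mixed picture. Of 8 listed genes 2 were lower and 6 did not pass. Plec, the plectin that ties the beta 4 tail to keratin, was lower (-0.52, adjusted p = 0.0248), and Krt14 was the other. Krt14, Krt5, Col17a1 and Dst are also among the basal keratinocyte markers above, so these lists are not separate. Col17a1, the transmembrane collagen of hemidesmosomes, was at 358, 404 and 375 TPM with anti-OSM, against 330, 460 and 361 with anti-Ly6G, within one another's range. Its log2 fold change was 0.01 (adjusted p = 0.960). Dst, the other plakin of the plaque (0.14), Cd151, the tetraspanin that binds laminin-binding integrins (-0.06), Col7a1 of anchoring fibrils (-0.17) and Fermt1, the kindlin of keratinocytes (-0.18), did not pass. The Plec call was lost without each anti-OSM library or anti-Ly6G replicate 1 (adjusted p 0.0578 to 0.0974), and that of Krt14 without the same libraries (0.0661 to 0.0836).

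Among the stromal subunits the 1 gene called was Itga10 (gene ID 213119, chromosome 3, 96645584 to 96664519), the alpha subunit of a collagen receptor of chondrocytes. It was at 7.07, 5.89 and 5.96 TPM with anti-OSM, against 10.8, 13.5 and 11.3 with anti-Ly6G. The groups lay apart (log2 fold change -0.89, SE 0.10, -1.12 to -0.66, adjusted p = 0.00307). Of 12 tested cartilage markers 9 were lower too, with sums of 443.5 to 473.0 CPM against 647.3 to 744.9. The cartilage collagen Col2a1 had -1.11 and the proteoglycan gene Acan -1.09. None of the cartilage markers was at 0 in all libraries, and their part in the Itga10 difference was not tested. In the GENCODE M21 annotation 33.5% of the exon bases of Itga10 are shared with Gm42957 on the same strand. Gm42957 has no entry in the count table, and how reads in the shared bases were assigned is not known.

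Itga7, the laminin-binding alpha subunit of muscle, was at 17.9, 15.4 and 15.9 TPM against 19.4, 22.7 and 19.9. It did not overlap between groups but did not pass (-0.24, -0.41 to -0.07, adjusted p = 0.0761), and it passed in DESeq2 (adjusted p = 0.0370). The log2 ratio of the mean TPM values of Itga7 was larger, at -0.33. Its reads per TPM unit were higher in each anti-OSM library, by 0.07 on average. Lama2, the alpha chain of muscle and nerve laminin, was at 18.7, 17.8 and 16.3 against 14.4, 17.9 and 16.3 TPM, with overlap (0.14, -0.03 to 0.31). Of 14 skeletal muscle markers 10 were lower, with sums of 3877 to 4665 CPM against 5947 to 6384. None of these markers was at 0 in all libraries, and their part in the values of Itga7 and Lama2 was not tested.

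The laminin chains of vessels and general basement membranes had small fold changes. Lama4, the alpha chain under endothelium, was at 24.8, 23.5 and 23.1 against 21.5, 27.0 and 26.9 TPM (-0.05, -0.23 to 0.13). Lamb1 had 0.00 (-0.15 to 0.16), Lamb2 -0.09 (-0.25 to 0.07) and Lamc1, the commonest gamma chain, -0.15 (-0.32 to 0.03). Each of these 4 intervals includes 0. Lamc3, a gamma chain of skin and nerve, had -0.56 but a wide interval (-1.18 to 0.07), and Lama1, an embryonic alpha chain, was low at 0.537 TPM on average (-0.50, -1.69 to 0.70). The fibroblast and vessel integrins Itga1 (0.17), Itga8 (-0.08) and Itga11 (-0.06) did not pass. No stromal gene was called higher by edgeR or DESeq2, and 0 were higher at an unadjusted p under 0.05. Of 10 endothelial markers 10 did not pass (2 were higher at an unadjusted p under 0.05 and 0 in DESeq2), and of 10 fibroblast markers 6 were higher, with sums of 9829 to 10177 CPM against 5895 to 8496.

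Of the leukocyte subunits, Itga4, Itgae and Itgb2 were higher with anti-OSM. Itga4 (gene ID 16401, chromosome 2, 79255426 to 79333114), which pairs with beta 1 or beta 7 to bind VCAM-1 or MAdCAM-1, was at 10.7, 7.41 and 7.97 TPM with anti-OSM, against 4.91, 5.32 and 6.51 with anti-Ly6G. All anti-OSM libraries were above all anti-Ly6G libraries, and replicate 1 of anti-OSM stood highest. The log2 fold change was 0.66 (SE 0.15, 0.33 to 1.00, adjusted p = 0.0265). Itgb2 (gene ID 16414, chromosome 10, 77530329 to 77565708), the beta subunit shared by LFA-1 and Mac-1, was at 62.5, 57.7 and 63.7 against 40.7, 43.4 and 54.7 TPM. The groups did not overlap, although anti-Ly6G replicate 3 came close (0.44, SE 0.11, adjusted p = 0.0344). Itgae (gene ID 16407, chromosome 11, 73090505 to 73147449), which encodes CD103 of epithelial T cells and some dendritic cells, was at 10.4, 13.6 and 12.8 against 8.18, 9.01 and 10.1 TPM. Its lowest anti-OSM library was just above the highest anti-Ly6G library (0.46, SE 0.12, adjusted p = 0.0438).

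These 3 calls were each lost without several libraries, while the log2 fold changes stayed positive in all other settings. They ranged from 0.50 to 0.78 for Itga4, 0.37 to 0.57 for Itgb2 and 0.38 to 0.58 for Itgae. Itga4 lost its call when any of anti-OSM replicates 1 and 3 and anti-Ly6G replicates 1 and 2 was left out (adjusted p 0.0661 to 0.0941), and Itgae for anti-OSM replicates 2 and 3 and anti-Ly6G replicates 1 and 2 (0.111 to 0.147). Itgb2 lost it without any library but anti-Ly6G replicate 3 (0.0719 to 0.125). With limma on log2(TPM + 0.5) none of the 3 passed (adjusted p = 0.0722 for Itga4, 0.0731 for Itgb2 and 0.101 for Itgae).

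Itgal and Itgam, the alpha subunits of LFA-1 and Mac-1, did not pass. Itgal was at 10.6, 9.59 and 9.41 against 6.46, 5.89 and 9.71 TPM, and anti-Ly6G replicate 3 lay within the anti-OSM range (0.44, 0.03 to 0.84, adjusted p = 0.143). Itgam was at 52.7, 39.0 and 50.2 against 33.2, 30.3 and 48.9 TPM, with the same library among the anti-OSM values (0.36, -0.09 to 0.81, adjusted p = 0.268). Without anti-Ly6G replicate 3 both passed (adjusted p = 0.00543 for Itgal and 0.0251 for Itgam). In GENCODE M21, 68.7% of the exon bases of Itgam are shared with Gm49368 on the same strand, which likewise has no entry in the count table. Itgax, the CD11c subunit, was at 11.5, 16.97 and 13.6 against 11.03, 14.04 and 14.7 TPM with overlap (0.10, -0.27 to 0.47). Itgb7, the partner of alpha E and alpha 4, had 0.27 (0.03 to 0.51, adjusted p = 0.133). Itga2b, the platelet subunit that mast cells can also express, had -0.22 (-0.54 to 0.10), and Itgad was close to absent at 0.241 TPM on average.

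**Figure D5:**
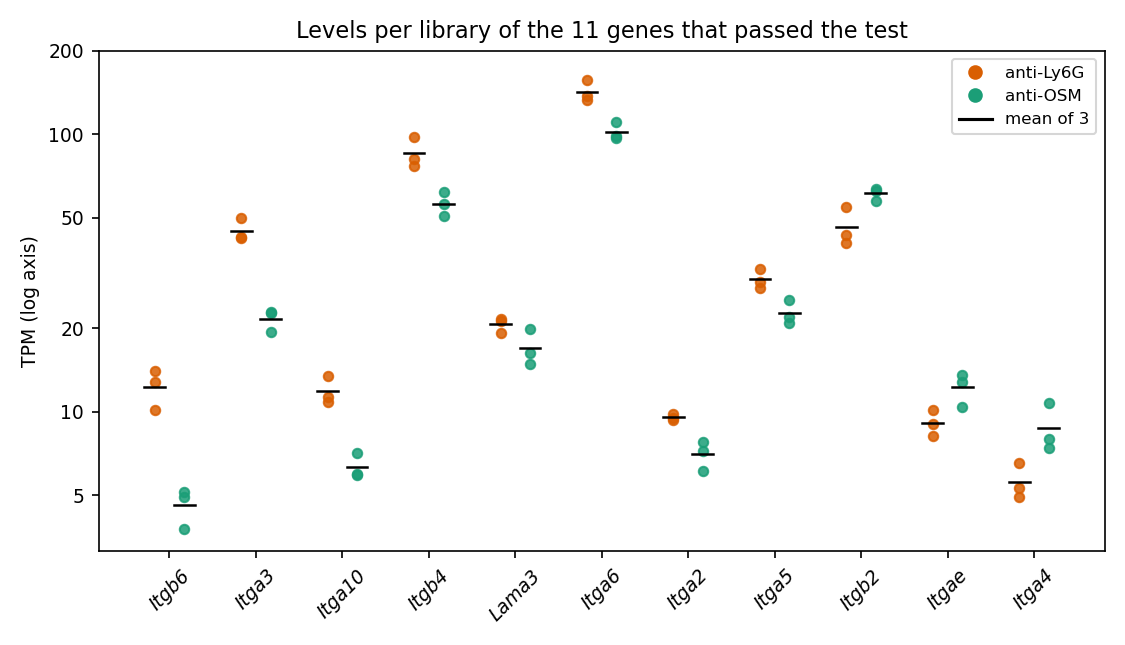
TPM of the 11 genes that passed the test, in each library (points, log axis) with the mean of 3 (bars), ordered by fold change. Itgb6, Itga3 and Itga10 show the widest gaps, and anti-Ly6G replicate 3 of Itgb2 (54.7) lies near the lowest anti-OSM library (57.7).

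Within a library the balance of the beta 2 integrins overlapped between groups. The ratio of Itgal to Itgb2 TPM was 0.161 ± 0.0117 with anti-OSM, against 0.157 ± 0.0211 with anti-Ly6G (SD, n = 3), and that of Itgam to Itgb2 was 0.769 ± 0.0849 against 0.803 ± 0.0981. The ratio of Itgax to Itgb2 was 0.231 ± 0.0570 against 0.288 ± 0.0311, also with overlap, as were Itgae to Itgb7 (0.517 ± 0.0893 against 0.456 ± 0.0456) and Itga4 to Itgb7 (0.366 ± 0.0665 against 0.279 ± 0.0258). The ratio of Itga4 to Itgb1, which many cell types express, was 0.0537, 0.0406 and 0.0440 against 0.0295, 0.0296 and 0.0326, with no overlap.

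Some markers of several white blood cell types were higher beside these subunits, and the counts depended on the test. Macrophage markers had 4 of 12 higher in edgeR and 10 in DESeq2, with sums of 3030 to 3668 CPM against 1763 to 2684, and dendritic cell markers had 9 of 12 higher in both, with 2670 to 3430 against 1833 to 2357. Eosinophil markers had 4 of 8 tested higher in edgeR and 6 in DESeq2 (167.5 to 189.8 CPM against 55.6 to 94.0). Mast cell markers had 5 of 11 higher in edgeR and 6 in DESeq2 (643.2 to 723.1 against 389.6 to 527.6). T cell markers had 2 of 12 higher in edgeR and 5 in DESeq2 (138.6 to 151.0 against 93.6 to 127.8). In each of these 5 lists anti-Ly6G replicate 3 had the highest sum of its group. Of 7 tested neutrophil markers 7 did not pass (2 were higher at an unadjusted p under 0.05 and 1 in DESeq2), with sums of 158.0 to 179.8 CPM against 101.8 to 171.9. Of 6 NK cell markers 6 did not pass and 1 was higher in DESeq2 (17.3 to 18.0 CPM against 9.89 to 14.2). B cell markers had 2 of 4 tested higher in both tests (35.6 to 46.3 CPM against 14.6 to 21.5). None of the markers in these lists was at 0 in all libraries, and their part in the rises of the subunits was not tested.

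Of the broadly expressed subunits, Itga5 (gene ID 16402, chromosome 15, 103344286 to 103366791), the alpha subunit of the main fibronectin receptor, was lower. It was at 25.2, 20.9 and 21.9 TPM against 28.0, 29.3 and 32.7, without overlap (-0.38, SE 0.08, -0.57 to -0.19, adjusted p = 0.0248). It did not pass without either of anti-OSM replicates 2 and 3 or anti-Ly6G replicate 1 (adjusted p 0.0556 to 0.0921). Itgav, the alpha subunit shared by several receptors that activate TGF-beta or bind vitronectin, had -0.12 (-0.28 to 0.04), and its beta partners Itgb5 and Itgb3 had 0.07 (-0.19 to 0.32) and 0.34 (-0.06 to 0.73). Itga9, a receptor subunit for tenascin, was at 17.2, 14.8 and 14.6 against 11.1, 14.2 and 14.7 TPM and did not pass (0.24, 0.01 to 0.47, adjusted p = 0.152).

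By mean TPM over the 6 libraries, Itgb1 (185) and Itga6 (122) led the 36 genes, followed by Itgb4 (70.7), Itgb5 (67.5) and Itgb2 (53.8). Of the laminin chains Lamb2 was the most abundant (47.1), followed by Lamc1 (39.6) and Lamb3 (33.8). Itgad (0.241), Lama1 (0.537) and Itgb8 (3.89) were the lowest of the 36.

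Genes that work with these subunits were read from 6 lists of 95 genes in all, of which 94 were tested, 11 were higher and 10 lower. Over all tested genes the same test called 5.81% higher and 6.27% lower, so 1 call in a short list is no result about that list. Among 30 adaptors and activators, 4 were higher and 4 lower. Fermt3, the kindlin that blood cells need to switch integrins on, was higher (0.62, adjusted p = 0.0194), as were Apbb1ip, a Rap1 effector that recruits talin (0.54, adjusted p = 0.0131), Zyx (0.43) and Rsu1 (0.40). Lims2 (-0.41), Tns4 (-0.41), Vcl (-0.30) and Actn1 (-0.30), which link integrins to actin, were lower. The ubiquitous talin Tln1 (-0.07), Ptk2, the focal adhesion kinase (-0.16), and Ilk (0.17) did not pass.

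Among 18 other basement membrane genes 1 was higher and 3 lower, with 6 lower in DESeq2. Tinagl1, a matrix glycoprotein that binds integrins, fell by 1.41 on the log2 scale (SE 0.12, adjusted p = 0.00177), at 39.8, 40.4 and 31.8 TPM with anti-OSM, against 113, 98.9 and 89.2 with anti-Ly6G. All 3 anti-OSM libraries lay far below the others. Hspg2, the perlecan gene, was lower (-0.39, adjusted p = 0.0226), as was the collagen gene Col4a4 (-0.78, adjusted p = 0.0325), while Nid2 was higher (0.45, adjusted p = 0.0213) and Nid1 did not pass (0.12). Of 8 other laminin receptors 1 was lower, the syndecan gene Sdc1 (-0.58, adjusted p = 0.00704). The dystroglycan gene Dag1 had -0.02 (adjusted p = 0.890).

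Of 20 matrix ligands and TGF-beta genes 5 were higher and 15 did not pass, with 9 higher in DESeq2. Postn, which encodes periostin, a ligand of alpha V integrins, was at 1894, 2006 and 2039 TPM with anti-OSM, against 832, 615 and 1037 with anti-Ly6G (1.28, SE 0.18, adjusted p = 0.00720). Fn1 (0.38, adjusted p = 0.0199), Tgfb1 (0.37, adjusted p = 0.0265), Col6a1 (0.32) and Fbln5 (0.29) were also higher, and Tnc, the tenascin C gene, did not pass (-0.20). Of 10 tested ligands on cells 1 was higher, Jam2 (0.57, adjusted p = 0.00872). Icam1 (-0.09), the ligand of LFA-1, Vcam1 (0.48, adjusted p = 0.369), the ligand of alpha 4 beta 1, and Cdh1 (-0.23), the E-cadherin bound by alpha E beta 7, did not pass. Of these 21 calls those of Tinagl1, Sdc1, Postn and Jam2 were kept without any 1 library. The other 17 were lost without at least 1, at adjusted p up to 0.157. Vcl and Actn1 passed in 0 of the 6 fits with a library left out. Col4a4, Tgfb1, Tns4, Lims2, Rsu1, Col6a1 and Fbln5 passed in 1 of these 6 fits.

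Other genes share exon bases with 12 of the 36 in GENCODE M21, and the assignment of reads, and any use of strand in it, are not given in the sources used here. For Itga4, 8.04% of exon bases are shared with Cerkl on the other strand, whose own count was 62 to 95 reads per library. For Itgb4, 7.66% are shared with B230344G16Rik, at 11 to 43 reads. For the other called genes among the 12, the shares are 33.5% for Itga10, given above, and 1.83% for Lama3.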

How the data were processed

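PolyA RNA of ear skin was sequenced, and the table used here holds 6 of the 16 labelled libraries (3 anti-OSM, 3 anti-Ly6G). Per the file headers, the authors deposited for each gene a whole read count, FPKM and TPM. The deposited counts were used for all main tests. The deposited TPM values sum to 1000000 per library and gave levels and ratios. The deposited FPKM values were not used. Tools listed without order or role in the submitters' processing notes are edgeR 3.40.2, HISAT2 2.1.0, Trimmomatic 0.38, StringTie 2.1.3b, bcl2fastq 2.20.0 and SAMtools 1.9, and mm10 is among the builds. RefSeq positions for GRCm38.p6, the assembly that mm10 names, are given.

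Counts were fitted over all genes with edgeR 4.0.16 in R 4.3.3 (filterByExpr, TMM, robust quasi-likelihood fit, 2-sided F-test, no covariate), with Benjamini-Hochberg adjustment over 19915 genes and a threshold of 0.05. CPM uses TMM-scaled library sizes. SEs and 95% intervals come from the F statistic. Alternatives were other scalings and filters, DESeq2 1.42.0, limma-voom (limma 3.58.1), a non-robust fit, a replicate block, leaving out each library, and limma on log2(TPM + 0.5), the last chosen after seeing the data. In simulated counts for this comparison (19595 genes tested), 50 genes were changed at each of 1.5-, 2-, 4- and 8-fold. The test found 48% of those changed 1.5-fold and 84% of those changed 2-fold. Of its 182 calls 9.89% were false, above the share that a threshold of 0.05 aims at. Far fewer genes were changed there than the 2406 called in the data, so these rates may not hold for the data. Replicates were not duplicates: their chi-square per gene was at least 26.2. The floor of 3 counts covers counting error only.

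One gene that the symbol rule takes is not reported here and is left out of all counts over the members. The members, their classes and the gene lists were chosen with earlier results of these data known. The text names each member, each called pathway gene, pathway genes listed by role, and the first 2 markers of a list where one is named.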

Additional observations from a re-analysis of the deposited data

How the results depend on the processing

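Under the other 11 settings that keep all 6 libraries, each of the 11 calls kept its direction. Under limma on log2(TPM + 0.5), 575 genes were higher, 0 of the 36 genes, and so 0 leukocyte genes, were higher and 5 were lower, and 6 pathway genes were higher and 3 lower. The 5 of the 11 calls that passed there were Itga10, Itga3, Itga6, Itgb4 and Itgb6. Without a filter on low counts Itgae was lost. Leaving out 1 library gave 240 to 1545 genes higher and 420 to 1447 lower, against 1157 and 1249 with all 6 libraries. Both counts were highest without anti-Ly6G replicate 3. Among the 36 genes, leaving out 1 library gave 0 to 5 higher and 3 to 9 lower. Of these, 2 to 7 epithelial genes were lower and 0 to 5 leukocyte genes higher. Among pathway genes it gave 2 to 14 higher and 2 to 7 lower. With raw counts in place of TPM, the log2 difference between groups was -0.24 for Lama3/Lamb3, against -0.03. The causes of these changes were not tested. Whether the replicate numbers pair the libraries was not settled. The correlations of same-numbered deviations were 0.01, 0.04 and 0.12, against -0.117 to 0.0814 for libraries of different number. With 3 libraries a group, such values can neither show nor exclude pairing. With the replicate number as a block, 1293 genes were higher and 1241 lower, and 3 and 10 of the 36, Lama5 and Lamc3 being added. Of the pathway genes named, the block added Vcam1 (adjusted p = 0.0243) and lost Vcl (0.0669), Actn1 (0.0651) and Col6a1 (0.0560). DESeq2 gave 3 higher and 10 lower of the 36, with Lama5 and Itga7 added. The share of all genes that DESeq2 called is not given here, so these 2 counts cannot be set against it. Low counts leave Itgad and Lama1 with wide intervals.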

Other observations

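Genes with names related to these families that the selection did not take were read after the main results. Of 11 such genes with reads, 10 were tested, 1 passed and 9 did not. Itgbl1, a secreted protein with integrin-like repeats but no membrane anchor, was higher with anti-OSM, at 38.8 TPM on average against 31.5 (log2 fold change 0.37, SE 0.07, adjusted p = 0.0167 in edgeR). Its call was lost without each anti-OSM library (adjusted p 0.0503 to 0.0688). Of the netrins, which carry laminin-like domains, Ntn1 (0.14) and Ntn4 (-0.04), a part of basement membranes, did not pass. Itgb2l, a neutrophil paralogue of Itgb2, was too low to test, at 0.0419 and 0.0915 TPM on average.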
